A study of Mus musculus with 10 samples.

Results

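Colon tissue of mice fed aspirin was set directly against colon tissue of mice fed curcumin, both after the same chemical induction of colon tumours. The comparison used 4 of the 10 RNA-seq libraries of the study, chosen by their titles: 2 labelled ASA (replicates 0 and 1) and 2 labelled CUR (replicates 0 and 1). All animals were C57BL/6 mice. The ASA mice ate the purified AIN-93M diet with 0.02% aspirin (acetylsalicylic acid), and the CUR mice ate the same diet with 2% curcumin. Both had received the carcinogen azoxymethane (AOM) under the skin at 10 mg/kg when 6 weeks old, followed a week later by 1.2% dextran sulfate sodium (DSS), which injures the colon lining, in the drinking water for 7 days. Other groups of 2 libraries each, which entered the fit and are quoted for their levels, were ASA+CUR (0.01% aspirin and 1% curcumin, with AOM and DSS), Model (AOM and DSS, diet without either compound) and Control (saline, no DSS). The diet doses of the compounds differ, so the contrast is between 2 diets and not between equal doses.

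The labels call the tissue of the AOM/DSS groups tumour samples, while the protocol describes colon frozen once its proximal end and the tumours that could be felt were gone. The tumour content of each library is therefore not known. Nothing in the labels tells separate mice from repeat libraries of the same mice, and the p-values measure only the spread between libraries, which may be technical. Because both diet groups were compared with each other, the difference shares no Model or Control library, although all 10 libraries shared an estimate of the spread.

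Aspirin acetylates the cyclooxygenases, encoded by Ptgs1 and Ptgs2, and so blocks the synthesis of prostaglandins, and esterases split it to salicylate. Curcumin, the yellow polyphenol of turmeric, is poorly absorbed and is reduced, glucuronidated and sulfated in the gut wall, and in cultured cells it acts on NF-kB and Nrf2 signalling among other pathways. The colon lining on which both act is built of absorptive cells, mucus-making goblet cells and hormone-making enteroendocrine cells, renewed from crypt stem cells and lying on a stroma of fibroblasts, vessels, muscle and immune cells.

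The values were FPKM, fragment numbers divided by the length of the transcript and by the size of the library, summed over the transcripts of a gene. The summed FPKM was 532100 and 543000 in the ASA libraries and 719100 and 555300 in the CUR libraries, so CUR replicate 0 stood above the other 3. Fragment numbers and depth are unknown. Pearson's r of log2(FPKM + 1) across genes was 0.954 between the ASA libraries and 0.947 between the CUR libraries, and between an ASA and a CUR library it ran from 0.943 to 0.973. The libraries of a diet were thus no more alike than libraries of different diets. The median absolute difference between the 2 libraries of a group was 0.219 on the log2 scale in ASA and 0.359 in CUR. Differences of 1 or more on that scale separated the ASA libraries in 888 genes and the CUR libraries in 1350.

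Of 14061 genes that reached 1 FPKM in 2 or more libraries, 1 passed the threshold of an adjusted p under 0.05 (0.00711%), an alpha-globin gene higher in ASA, and none passed with ASA lower (limma with Benjamini-Hochberg adjustment). At an unadjusted p under 0.05 there were 691 genes, 4.91% of those tested, of which 271 (1.93%) were higher and 420 (2.99%) lower in ASA. The genes below with an adjusted p above 0.05 are given as values, as genes that ranked high in this comparison and did not pass it. Across all tested genes the median log2 difference, ASA minus CUR, was 0.0009, and the median absolute difference was 0.193 with a median standard error of 0.229.

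Hba-a2, which codes for an alpha chain of haemoglobin (chromosome 11, 32296492 to 32297310, GRCm38), had 29.95 and 17.29 FPKM in the ASA libraries and 0.0365 and 0.0354 FPKM in the CUR libraries. Both ASA libraries lay far above both CUR libraries, and the log2 difference was 4.52 ± 0.33 (SE, adjusted p = 0.0125, limma). It also had 9.22 and 18.1 FPKM in the ASA+CUR libraries, and 0.0361 and 0.0358 FPKM in the Model libraries. Its neighbour Hba-a1, 32283672 to 32284486 on the same chromosome, codes for the same chain. The coding sequences of both genes, 429 bases long, differ at 1 base, so the division of fragments between them is uncertain. The 41-base stretch around that base (coding bases 361 to 401, counted from the A of the start codon, GENCODE release M21 transcripts on GRCm38) is shown because it is the place in the coding part where a read can tell the genes apart, and the capital letter marks the differing base, C381T from Hba-a1 to Hba-a2.
Hba-a1: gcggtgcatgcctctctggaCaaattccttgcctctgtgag
Hba-a2: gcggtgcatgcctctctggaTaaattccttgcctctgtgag

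Each of these transcripts was listed on 2 rows of the deposited table, and the same gene could be high on either row. One Hba-a1 row held 0.0316 FPKM in ASA replicate 0 and 17.44 in ASA replicate 1, against 20.35 and 14.67 in the CUR libraries. Summed over the 4 rows, alpha-globin had 50.45 and 56.76 FPKM in ASA and 39.17 and 24.26 FPKM in CUR. The ASA libraries still lay above the CUR libraries, but the difference of the sum was 0.78 ± 0.87 on the log2 scale and did not pass (adjusted p = 0.861, limma, an alternative chosen after seeing the data). The Hba-a2 difference itself was 4.52 on the log2 scale in 5 further fits in which the call was lost. These were the fit with the replicate number as a block (adjusted p = 0.0622), without CUR replicate 0 (adjusted p = 0.104), with only the 8 AOM/DSS libraries (adjusted p = 0.0785), with only the 4 ASA and CUR libraries (adjusted p = 0.335) and with library weights (adjusted p = 0.388). Hbb-bs, a beta-globin gene, had 50.34 and 64.23 FPKM in ASA and 26.52 and 26.51 FPKM in CUR, a log2 difference of 1.07 ± 0.82 (adjusted p = 0.832).

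The ASA and CUR libraries of the genes ranked by smallest p did not overlap, as the choice of these genes required, and the plot of FPKM per library shows how far apart they lay. Both ASA libraries were above both CUR libraries in 1870 of the tested genes (13.3%) and below both in 2070 (14.7%). Each count of list members not overlapping that is given below is to be read against these shares of all genes.

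**Figure D1:**
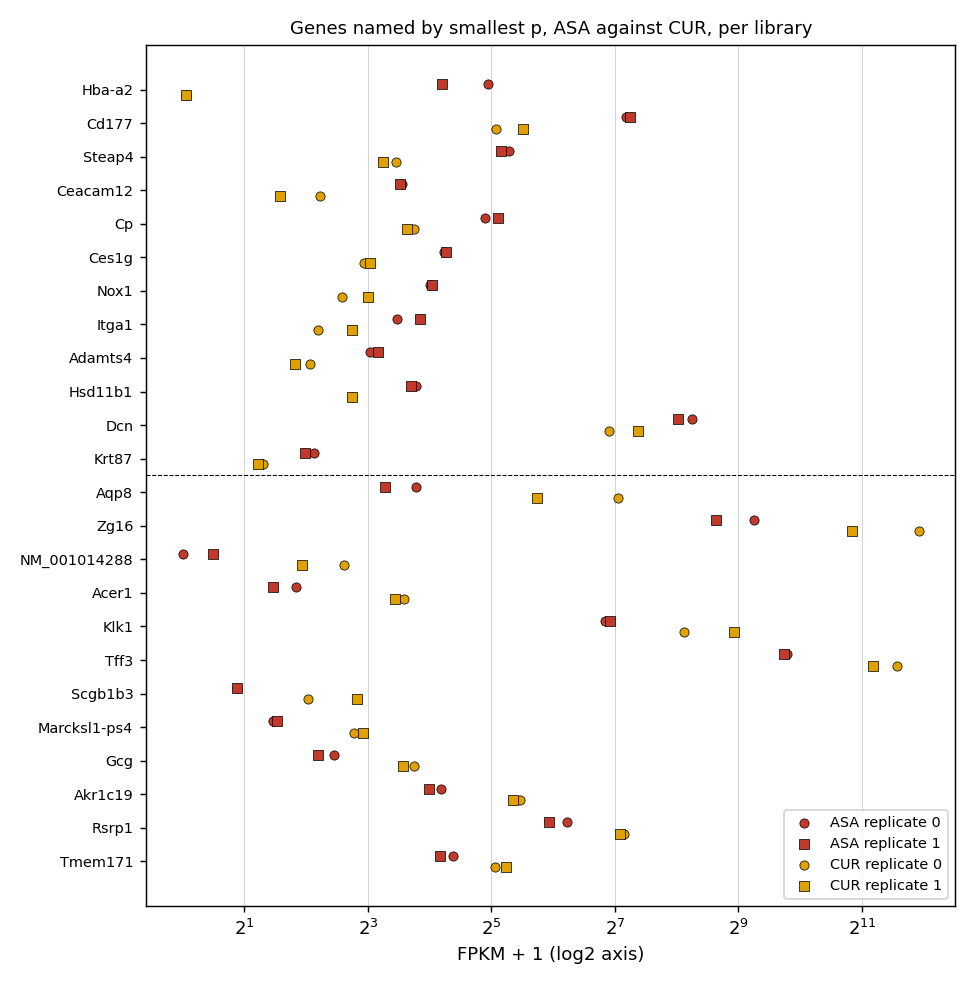
FPKM + 1 (log2 axis) of the 24 genes named by smallest p, for each ASA library (red) and CUR library (yellow), with circles for replicate 0 and squares for replicate 1. The 12 genes above the dashed line were higher in ASA, the 12 below it lower, and Hba-a2 is the gene with an adjusted p under 0.05.

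Among the genes higher in ASA after Hba-a2, the smallest p belonged to Steap4, a metalloreductase of iron and copper that inflammatory cytokines induce (chromosome 5, 7960472 to 7982213). It had 37.89 and 34.78 FPKM in ASA and 10.01 and 8.49 FPKM in CUR. The libraries were close within each diet and wide apart between diets, with a log2 difference of 1.87 ± 0.22 (adjusted p = 0.161, limma). Cd177, a surface glycoprotein best known from neutrophils (chromosome 7, 24743983 to 24760334), had 144.4 and 149.9 FPKM in ASA and 32.56 and 44.54 FPKM in CUR (log2 difference 1.92 ± 0.23, adjusted p = 0.161). Control tissue held 108.1 and 79.58 FPKM of Cd177, whereas the summed FPKM of the 10 tested genes of the neutrophil list was 4.52 and 2.22 there. Cp, which codes for the copper-binding ferroxidase ceruloplasmin, had 28.93 and 33.64 FPKM in ASA and 12.38 and 11.42 FPKM in CUR (log2 difference 1.32 ± 0.18, adjusted p = 0.174).

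Ces1g, a carboxylesterase, had 17.7 and 18.25 FPKM in ASA and 6.62 and 7.18 FPKM in CUR. The ASA libraries were also above those of every other group, the next highest being ASA+CUR with 8.47 and 8.18 FPKM, and the log2 difference from CUR was 1.27 ± 0.17 (adjusted p = 0.174, limma). Nox1, the superoxide-making NADPH oxidase of the colon lining, had 15.09 and 15.35 FPKM in ASA and 5.01 and 7.04 FPKM in CUR (adjusted p = 0.399). Model with 12.97 and 13.17 FPKM and Control with 12.76 and 12.32 FPKM lay near ASA, and ASA+CUR with 5.26 and 7.62 FPKM near CUR. Ceacam12 averaged 10.6 ± 0.247 FPKM in ASA and 2.83 ± 1.19 FPKM in CUR (SD, n = 2 each; adjusted p = 0.345 in limma).

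The other genes of this direction were Adamts4, a protease of matrix proteoglycans, Itga1, the alpha chain of a collagen-binding integrin, Dcn, the collagen-binding proteoglycan decorin, Krt87, a keratin, and Hsd11b1, which regenerates active glucocorticoid. Their log2 differences ran from 0.79 for Krt87 to 1.20 for Itga1. Hsd11b1 averaged 12.3 ± 0.514 FPKM in ASA and 5.70 ± 0.0441 FPKM in CUR (SD, n = 2 each). Dcn averaged 280 ± 31.2 FPKM in ASA and 142 ± 32.6 FPKM in CUR (SD, n = 2 each).

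Several of the genes lower in ASA are products of secretory cells. Gcg, the preproglucagon gene of the enteroendocrine L cell (chromosome 2, 62474530 to 62483653), had 4.48 and 3.59 FPKM in ASA and 12.39 and 10.89 FPKM in CUR. All 4 values were far below the 111.6 and 102.5 FPKM of Control, and the log2 difference of ASA from CUR was -1.33 ± 0.18 (adjusted p = 0.174, limma). Tff3, the trefoil peptide that goblet cells secrete with mucus (chromosome 17, 31125306 to 31129611), had 880.2 and 854.5 FPKM in ASA and 3027.1 and 2317.1 FPKM in CUR. The CUR libraries lay between the 1600.5 and 1902 FPKM of Model and the 3292.6 and 3452 FPKM of Control, the ASA libraries below all of these, and the log2 difference was -1.61 ± 0.23 (adjusted p = 0.174).

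Zg16, a lectin of the mucus layer that binds bacteria (chromosome 7, 127050156 to 127052675), had 608.7 and 395.1 FPKM in ASA and 3876.2 and 1837.8 FPKM in CUR. CUR replicate 0 was the higher of a CUR pair that was itself wide, and the log2 difference was -2.44 ± 0.39 (adjusted p = 0.345, limma). Klk1, a tissue kallikrein listed with the goblet cell genes, had 113.7 and 119.8 FPKM in ASA and 278.1 and 484.5 FPKM in CUR (log2 difference -1.65 ± 0.30, adjusted p = 0.579). Aqp8, the water channel of surface colonocytes (chromosome 7, 123462294 to 123468003), had 12.71 and 8.66 FPKM in ASA and 132 and 52.46 FPKM in CUR. Its log2 difference of -2.87 ± 0.59 was the largest drop among the 12 genes of this direction (adjusted p = 0.827), and its Model libraries, at 29.65 and 7.71 FPKM, lay on either side of the ASA range.

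Rsrp1, which codes for an arginine- and serine-rich protein, had 73.58 and 60.42 FPKM in ASA and 140.7 and 134.8 FPKM in CUR. Here Model with 133.1 and 130.8 FPKM and Control with 137.9 and 152 FPKM lay near CUR, and ASA+CUR with 71.79 and 74.69 FPKM near ASA. The log2 difference of ASA from CUR was -1.04 ± 0.14 (adjusted p = 0.174, limma). Also in this direction were Acer1, an alkaline ceramidase, Akr1c19, an aldo-keto reductase, Tmem171, Scgb1b3, the pseudogene Marcksl1-ps4, and 1 transcript, NM_001014288, for which no gene name was found. Acer1 had 2.57 and 1.77 FPKM in ASA and 10.99 and 9.89 FPKM in CUR. Marcksl1-ps4, as a processed copy of another gene, may share reads with its parent. It also starts at 4248735 on chromosome 13, close to the end of Akr1c19 at 4248361. Whether these neighbours share a signal was not tested.

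**Figure D2:**
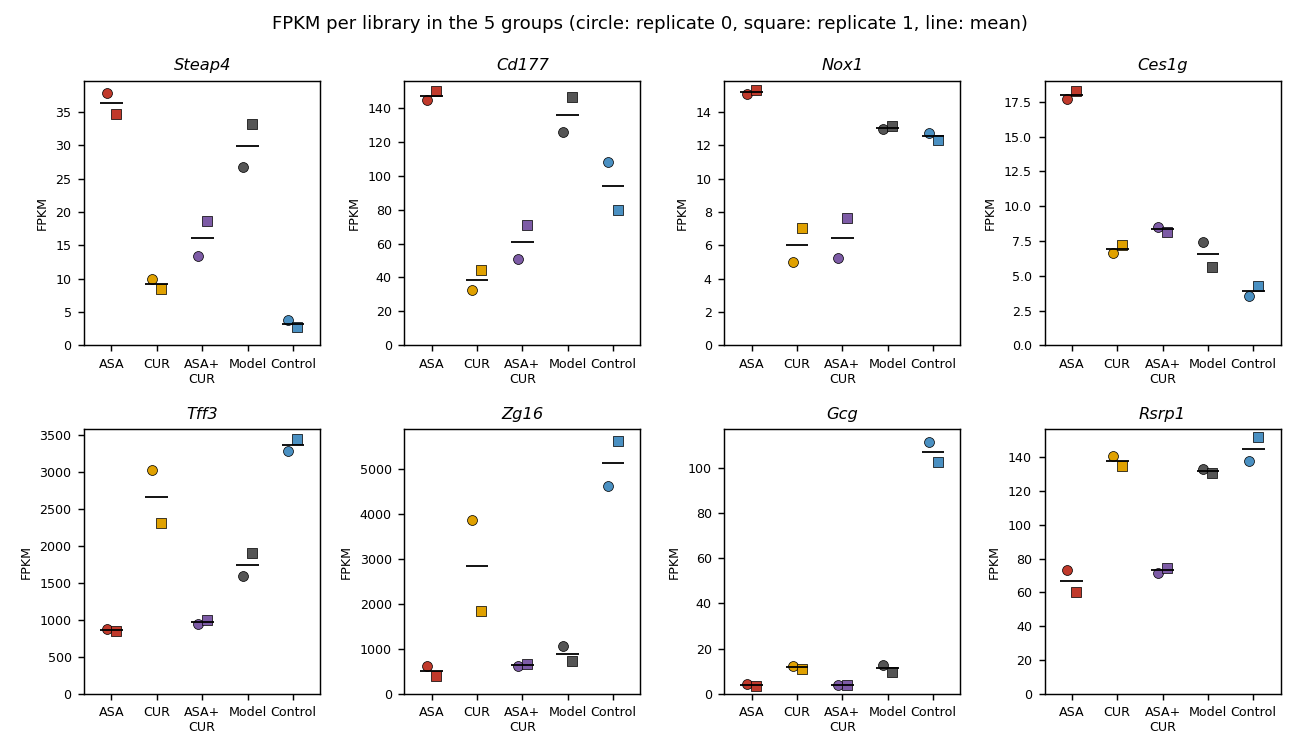
FPKM of 8 genes in each of the 10 libraries, by group, with circles for replicate 0, squares for replicate 1 and a line for the mean. Steap4, Cd177, Nox1 and Ces1g (upper row) were higher in both ASA than in both CUR libraries, and Tff3, Zg16, Gcg and Rsrp1 (lower row) were lower.

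The combined diet did not sit with either single diet throughout. Of the 12 genes named as lower in ASA, the ASA+CUR mean on the log2 scale lay nearer to ASA than to CUR in 11. Of the 12 named as higher in ASA it lay nearer to CUR in 8, among them Steap4, Cd177, Ces1g and Nox1. Model lay nearer to ASA in 9 of the genes higher in ASA and nearer to CUR in 8 of the genes lower in ASA. Control lay nearer to CUR in 8 of the genes higher in ASA and in 11 of those lower in ASA. These are counts of distances between group means, were not tested, and come from genes picked for a wide gap between ASA and CUR. The combined diet held each compound at a lower dose.

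Goblet cell genes, which code for mucus components and the factors that specify the cell, had lower values in ASA in 13 of 14 tested members, while 50.1% of all tested genes had a difference above 0. Both ASA libraries were below both CUR libraries in 9, against 14.7% of all genes, and above both in 0. The median log2 difference was -0.89, and it stayed between -1.29 and -0.79 when each of the 4 libraries was left out in turn. Beside Tff3, Zg16 and Klk1, the member with the next smallest p was Atoh1, the transcription factor that commits crypt cells to the secretory lineage, with 7.54 and 9.17 FPKM in ASA and 14.38 and 15.41 FPKM in CUR (log2 difference -0.77 ± 0.23, adjusted p = 0.832, limma). No goblet cell gene passed the threshold with all 4 libraries. The whole list summed to 5109 and 4310 FPKM in ASA, 14270 and 8480 in CUR, and 48070 and 21350 in Control. In bulk tissue, fewer cells of a type and less RNA per cell cannot be told apart.

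Genes of absorptive colonocytes, which take up water and salt, showed the same direction in 21 of 24 tested members. Both ASA libraries were below both CUR libraries in 9, against 14.7% of all genes, and above both in 0. The median was -0.70, from -0.91 to -0.57 with each library left out. Car4, a membrane carbonic anhydrase, had 27.21 and 13.63 FPKM in ASA and 163 and 157.5 FPKM in CUR, a log2 difference of -2.99 ± 0.68 (adjusted p = 0.832, limma). Slc26a3, the chloride-bicarbonate exchanger, had 11.99 and 11.09 FPKM in ASA and 43.53 and 81.16 FPKM in CUR (log2 difference -2.27 ± 0.66, 95% interval -3.80 to -0.74, adjusted p = 0.832). Guca2a, the peptide guanylin, had 130.1 and 217.3 FPKM in ASA and 2016.8 and 283.5 FPKM in CUR. Most of that gap came from CUR replicate 0, since CUR replicate 1 was near the ASA libraries. The list summed to 1887 and 2736 FPKM in ASA, 8249 and 3389 in CUR, and 10520 and 11110 in Control.

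Of 14 enteroendocrine genes, 13 were at lower values in ASA, but 4 did not overlap, and the median of -0.35 ranged from -1.03 without ASA replicate 0 to -0.03 without ASA replicate 1. Chga, the chromogranin of secretory granules, had 8.58 and 2.76 FPKM in ASA and 9.42 and 21.4 FPKM in CUR. Tph1, which makes serotonin in enterochromaffin cells, had 1.06 and 1.47 FPKM in ASA and 2.97 and 3.51 FPKM in CUR. Insl5, a peptide hormone of the distal colon, had 10.74 and 1.95 FPKM in ASA and 7.06 and 30.85 FPKM in CUR, so its groups overlapped.

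Stem cell genes of the crypt had higher values in ASA in 12 of 17 members and did not overlap in 6 (0 below), with a median of 0.23 that shrank to 0.07 without CUR replicate 0. Lgr5, the receptor that marks crypt base stem cells, had 15.83 and 10.62 FPKM in ASA and 7.77 and 7.22 FPKM in CUR (log2 difference 0.72 ± 0.28, adjusted p = 0.832, limma). The Wnt target Axin2 had 65.01 and 77.54 FPKM in ASA and 44.12 and 93.71 FPKM in CUR, a difference of 0.14 with a 95% interval from -0.58 to 0.86. Myc had 37.06 and 59.41 FPKM in ASA and 60.51 and 41.71 FPKM in CUR, with an interval from -0.66 to 0.47. Both intervals span 0, so neither direction was resolved. The cell cycle list of 34 genes had a median of -0.04, with 1 gene not overlapping in each direction.

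**Figure D3:**
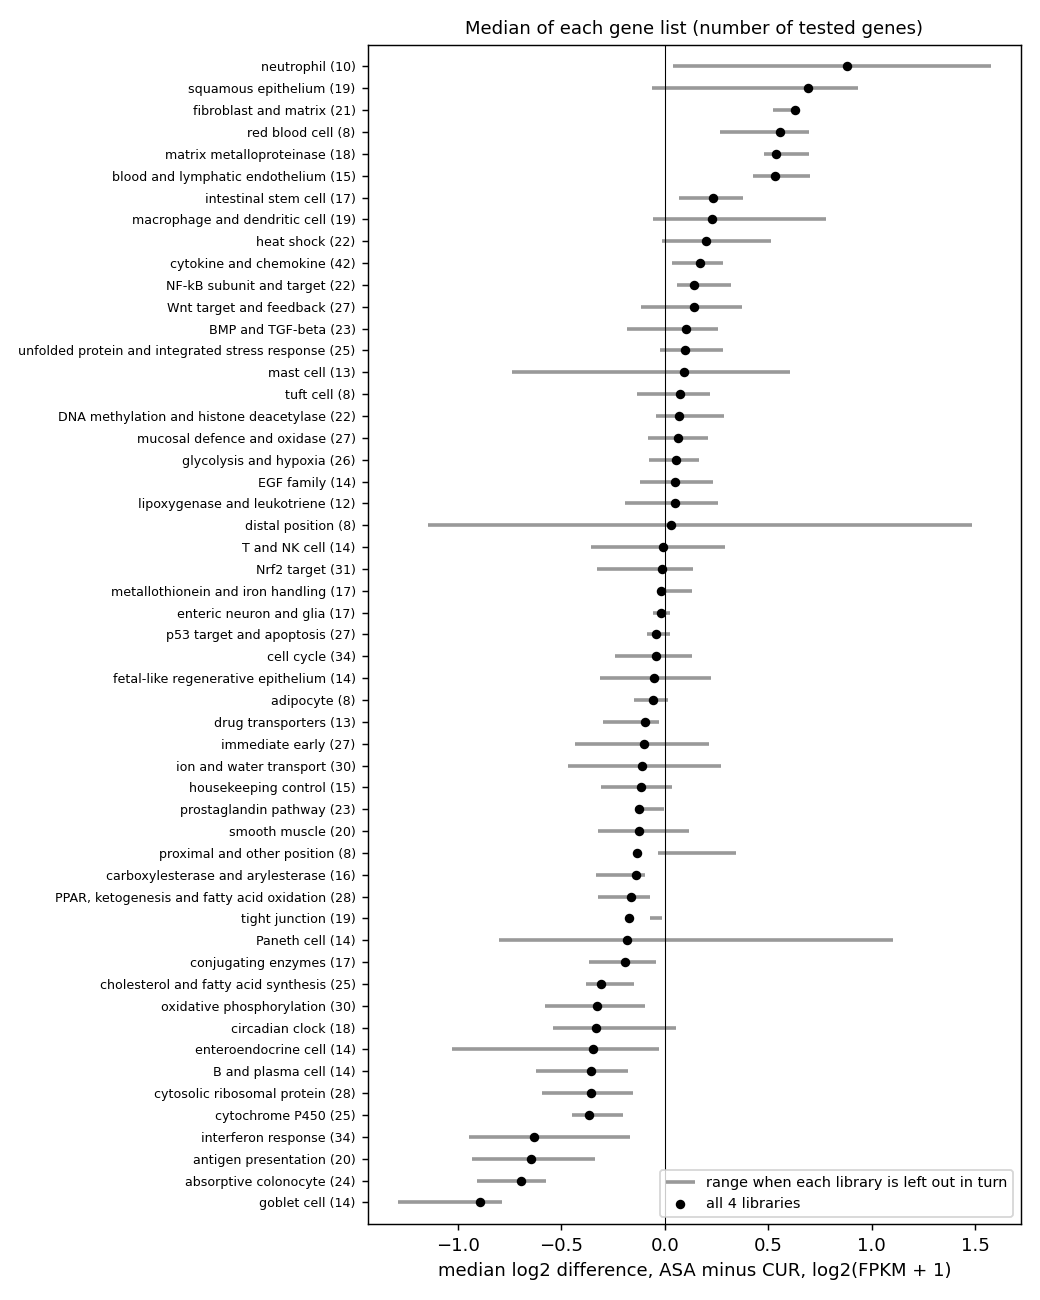
Median log2 difference, ASA minus CUR, of each gene list with at least 5 tested genes (number in brackets), with all 4 libraries (black point) and the range over the fits that leave out each library in turn (grey line). The goblet cell and absorptive colonocyte lists stayed below 0 and the fibroblast, endothelium and metalloproteinase lists stayed above 0, while the distal position list crossed 0 from -1.15 to 1.48.

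Fibroblast and matrix genes had higher values in ASA in 20 of 21 members, with 14 not overlapping above and 0 below, against 13.3% of all genes above (median 0.63, from 0.52 to 0.64 with each library left out). Col1a1, a chain of type I collagen, had 210.4 and 173.5 FPKM in ASA and 80.98 and 95.72 FPKM in CUR (log2 difference 1.11 ± 0.28, adjusted p = 0.832, limma). Loxl2, which crosslinks collagen, had 59.11 and 38.37 FPKM in ASA and 23.06 and 30.89 FPKM in CUR. The list summed to 3010 and 2663 FPKM in ASA, 1681 and 2276 in CUR, 2889 and 2866 in ASA+CUR, and 1870 and 3325 in Model, whose libraries spanned both diets. The list's median log2 difference from the Model mean was 0.09 and 0.16 in ASA, -0.45 and -0.27 in CUR, and 0.03 and -0.17 in ASA+CUR.

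Endothelial genes had higher values in ASA in 15 of 15 members, with 10 not overlapping (median 0.53, from 0.43 to 0.70 with each library left out). Cdh5, the cadherin of vessel walls, had 15.87 and 44.34 FPKM in ASA and 14.18 and 9.38 FPKM in CUR. Flt1, a receptor of vascular endothelial growth factor, had 3.42 and 4.98 FPKM in ASA and 2.50 and 2.61 FPKM in CUR. A wide spread was seen in Prox1, which was listed as a gene of lymphatic vessels. Its source cells in this bulk tissue are not known. Prox1 had 39.9 and 43.76 FPKM in ASA and 5.74 and 42.07 FPKM in CUR, where CUR replicate 0 alone was low.

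Matrix metalloproteinases and their inhibitors had higher values in ASA in 17 of 18 members, with 10 not overlapping above and 0 below (median 0.53, from 0.48 to 0.70 with each library left out). Mmp3, stromelysin, had 51.75 and 23.21 FPKM in ASA and 11 and 4.05 FPKM in CUR (log2 difference 2.20 ± 0.71, adjusted p = 0.832, limma). Mmp9, a gelatinase of neutrophils and macrophages, had 19.93 and 66.79 FPKM in ASA and 8.68 and 11.9 FPKM in CUR. Mmp12, the elastase of macrophages, had 8.54 and 16.16 FPKM in ASA and 5.14 and 3.41 FPKM in CUR. In these 3 genes the ASA libraries differed from each other by more than the CUR libraries did in FPKM. On the log2(FPKM + 1) scale of the fit, the CUR libraries of Mmp3 lay farther apart than its ASA libraries.

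Smooth muscle genes showed 1 of 20 members not overlapping above and 4 below, against 13.3% and 14.7% of all genes. Their median of -0.13 was 0.115 without CUR replicate 1 and 0.08 under TPM scaling. Des, the muscle intermediate filament, had 13.85 and 17.53 FPKM in ASA and 23.65 and 34.75 FPKM in CUR, all far below the 1451.3 and 850.6 FPKM of Control. Adipoq, the marker of fat cells, was at 0.0626 and 0 FPKM in ASA and listed at 0 in both CUR libraries. Enteric neuron and glia genes had a median of -0.02 over 17 members.

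Neutrophil genes had higher values in ASA in 10 of 10 tested members, with 5 not overlapping. S100a8, a calcium-binding alarmin, had 83.43 and 228 FPKM in ASA and 40.86 and 65.16 FPKM in CUR. ASA replicate 1 was well above ASA replicate 0, and the list median of 0.88 was 1.58 without ASA replicate 0 and 0.04 without ASA replicate 1. The summed level of the list was 198.1 and 556.2 FPKM in ASA and 114.9 and 167.2 FPKM in CUR.

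Macrophage and dendritic cell genes had higher values in ASA in 14 of 19 members, with 7 not overlapping above and 0 below. Their median of 0.23 was -0.06 without ASA replicate 1. The list summed to 675.4 and 1727 FPKM in ASA and 1045 and 756.4 FPKM in CUR, so the sums overlapped. Arg1, arginase, had 68.58 and 184.8 FPKM in ASA and 39.04 and 28.54 FPKM in CUR (log2 difference 1.73 ± 0.50, adjusted p = 0.832, limma). Marco, a scavenger receptor, had 3.06 and 2.71 FPKM in ASA and 0.329 and 0.0343 FPKM in CUR. By contrast, of 14 B and plasma cell genes 10 were at lower values in ASA, with 7 not overlapping (median -0.36). Cd79b, part of the B cell receptor, had 4.85 and 3.14 FPKM in ASA and 6.35 and 16.38 FPKM in CUR, with CUR replicate 1 the highest of the 4 libraries. T and NK cell genes had a median of -0.01.

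Of 34 interferon response genes, 28 were at lower values in ASA. In 5 of the 34 both ASA libraries were below both CUR libraries, and in 0 above, so the share was no higher than the 14.7% of all genes. Isg15, a ubiquitin-like protein induced by interferon, had 27.53 and 72.57 FPKM in ASA and 309.2 and 56.95 FPKM in CUR. CUR replicate 0 was the high library there, as it was for Irf7, the interferon regulatory factor, with 47.37 and 114.5 FPKM in ASA and 407.4 and 93.69 FPKM in CUR. The list median of -0.63 was -0.17 without CUR replicate 0 and -0.95 without CUR replicate 1. Rsad2, the antiviral protein viperin, was among the 5 genes with both CUR libraries above both ASA libraries. It had 1.06 and 3.90 FPKM in ASA and 6.39 and 7.06 FPKM in CUR.

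Antigen presentation genes showed lower values in ASA in 17 of 20 members, with 13 not overlapping below and 1 above (median -0.65, from -0.93 to -0.34 with each library left out). B2m, the light chain of class I molecules, had 871 and 1019.9 FPKM in ASA and 2494.2 and 1408.1 FPKM in CUR. H2-Ob, a regulator of class II peptide loading found in B cells, had 1.16 and 0.863 FPKM in ASA and 2.30 and 4.81 FPKM in CUR. Part of this list is shared with B cells, whose genes had lower values in ASA as given above, and the part of B cells in the result was not tested.

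Of the 23 tested genes of the prostaglandin pathway, on which aspirin acts, none passed the threshold. At an unadjusted p under 0.05 there was 1, Ptgis, the prostacyclin synthase, with 1.05 and 1.54 FPKM in ASA and 3.12 and 2.24 FPKM in CUR (log2 difference -0.68 ± 0.29, adjusted p = 0.832, limma). Ptgs1, the constitutive cyclooxygenase, had 11.21 and 13.53 FPKM in ASA and 18.92 and 13.95 FPKM in CUR, a difference of -0.37 with a 95% interval from -0.99 to 0.24. Ptgs2, the inducible cyclooxygenase, had 33.18 and 6.83 FPKM in ASA and 33.43 and 12.83 FPKM in CUR. Each diet held 1 library near 33 FPKM and 1 much lower, and the interval of the Ptgs2 difference, from -2.60 to 1.76, allows large differences in either direction. Hpgd, which breaks prostaglandins down, had 29.7 and 22.91 FPKM in ASA and 28.56 and 77.7 FPKM in CUR.

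Esterases act on aspirin, and conjugating enzymes on curcumin, as given above. Ces2c and Ces2a, intestinal carboxylesterases, went in the opposite direction to Ces1g: Ces2c had 7.02 and 8.34 FPKM in ASA and 15.4 and 18.39 FPKM in CUR (log2 difference -1.04 ± 0.28, adjusted p = 0.832, limma), and Ces2a had 6.89 and 4.02 FPKM in ASA and 14.98 and 21.59 FPKM in CUR. Control held more Ces2c than either, with 84.41 and 118.6 FPKM. The 16 tested esterases as a list had 1 member not overlapping above and 4 below, against 13.3% and 14.7% of all genes. Their median of -0.14 was 0.01 under TPM scaling.

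The 4 sulfotransferases named by p, all cytosolic enzymes that add sulfate to phenols or steroids, had both ASA libraries below both CUR libraries. Sult1a1 had 5.31 and 5.48 FPKM in ASA and 9.98 and 36.07 FPKM in CUR, and Sult1d1 had 9.47 and 5.41 FPKM in ASA and 20.49 and 22.22 FPKM in CUR. Sult1b1 had 25.15 and 22.13 FPKM in ASA and 41.51 and 33.19 FPKM in CUR, and Sult2b1 had 11.51 and 6.63 FPKM in ASA and 29.36 and 14.01 FPKM in CUR. None passed (adjusted p = 0.832 for each, limma), and the list of 17 conjugating enzymes had 5 not overlapping below and 0 above, with a median of -0.19 that was 0.03 under TPM scaling. Ugt1a1, a glucuronosyltransferase, had 1.68 and 1.52 FPKM in ASA and 1.68 and 1.26 FPKM in CUR, overlapping values with an interval of the log2 difference from -0.96 to 1.11.

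Cytochrome P450 genes had 9 of 25 members not overlapping below and 0 above (median -0.37, from -0.45 to -0.20 with each library left out). Under TPM scaling the median was -0.17. Cyp3a13 had 7.29 and 6.83 FPKM in ASA and 13.7 and 21.06 FPKM in CUR, and Cyp2d34 had 21.76 and 34.76 FPKM in ASA and 51.7 and 46.77 FPKM in CUR. Nr1i2, the nuclear receptor PXR that induces enzymes of this family, had 15.26 and 14.54 FPKM in ASA and 25.5 and 20.38 FPKM in CUR (log2 difference -0.58 ± 0.19, adjusted p = 0.832, limma).

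The 31 genes of the Nrf2 response, which curcumin engages in cultured cells, had a median of -0.02. Of these, 2 were not overlapping above and 3 below, against 13.3% and 14.7% of all genes. Hmox1, haem oxygenase, had 76 and 159.3 FPKM in ASA and 20.9 and 28.73 FPKM in CUR, the widest gap of the list (log2 difference 2.12 ± 0.83, adjusted p = 0.832, limma). Haem oxygenase is also a gene of macrophages. Nqo1, a quinone reductase, had 24.21 and 15.4 FPKM in ASA and 21 and 9.11 FPKM in CUR, and Gstm1, a glutathione transferase, had 69.85 and 94.07 FPKM in ASA and 67.72 and 102.8 FPKM in CUR. Both overlapped between diets, with intervals from -0.48 to 1.38 for Nqo1 and from -0.59 to 0.51 for Gstm1.

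NF-kB subunits and targets had 7 of 22 members not overlapping above and 1 below, with a median of 0.14. Nfkb1, the p105 and p50 subunit, had 41.32 and 42.67 FPKM in ASA and 25.02 and 31.41 FPKM in CUR (log2 difference 0.57 ± 0.15, adjusted p = 0.832, limma). Nos2, the inducible nitric oxide synthase, had 23.55 and 16.7 FPKM in ASA and 9.14 and 4.89 FPKM in CUR (log2 difference 1.43 ± 0.44). Of the inflammatory cytokines, Il1b had 49.41 and 51.48 FPKM in ASA and 25.51 and 37.26 FPKM in CUR. Il6 had 12.28 and 1.22 FPKM in ASA and 1.15 and 0.342 FPKM in CUR, and ASA replicate 0 stood apart from the other 3. Tnf had 13.08 and 7.30 FPKM in ASA and 9.60 and 7.49 FPKM in CUR, which overlapped.

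Cholesterol and fatty acid synthesis genes had 10 of 25 members not overlapping below and 0 above (median -0.31, from -0.38 to -0.15 with each library left out). Under TPM scaling the median was -0.08. Hmgcs1, which feeds the mevalonate pathway, had 86.08 and 75.16 FPKM in ASA and 139.4 and 108.7 FPKM in CUR. Insig1, the sterol sensor that holds back the pathway, had 32.9 and 33.63 FPKM in ASA and 52.95 and 47.34 FPKM in CUR. Fatty acid synthesis genes are part of the same list, and they were not among its 4 members with the smallest p.

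The libraries differed within each diet in ways that touch these values. Hoxd13, a homeobox gene of the hindmost body axis that was singled out after its values were seen, had 75.65 and 0.0566 FPKM in ASA and 0.0323 and 71.64 FPKM in CUR. Hoxb13 followed it with 197.2 and 14.97 FPKM in ASA and 19.53 and 296.1 FPKM in CUR, and Hoxa11 ran the other way with 3.18 and 15.33 FPKM in ASA and 19.61 and 3.23 FPKM in CUR. Each diet therefore had 1 library high and 1 low for these position genes, with the replicate numbers crossed, and the difference between the diets was small beside that within them (Hoxd13 0.06 ± 2.33 on the log2 scale). The median of the 8 distal position genes was 0.03 with all libraries, -1.15 without CUR replicate 0 and 1.48 without CUR replicate 1. With Hoxd13 as a covariate, an alternative chosen after seeing the data, 1 gene passed.

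Squamous epithelium lines the anal canal and not the colon. Krt5, a keratin of its basal cells, had 94.55 and 0.0324 FPKM in ASA and 0.0739 and 0.0308 FPKM in CUR. Krt14, its partner, had 117 and 57.3 FPKM in ASA and 59.25 and 27.84 FPKM in CUR, so Krt5 was high in ASA replicate 0 alone and Krt14 was present in all 4. The list of 19 tested genes summed to 790.2 and 518.6 FPKM in ASA and 709.6 and 278.1 FPKM in CUR, and its median of 0.69 was -0.06 without ASA replicate 0. The part of this tissue in the other differences was not tested.

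**Figure D4:**
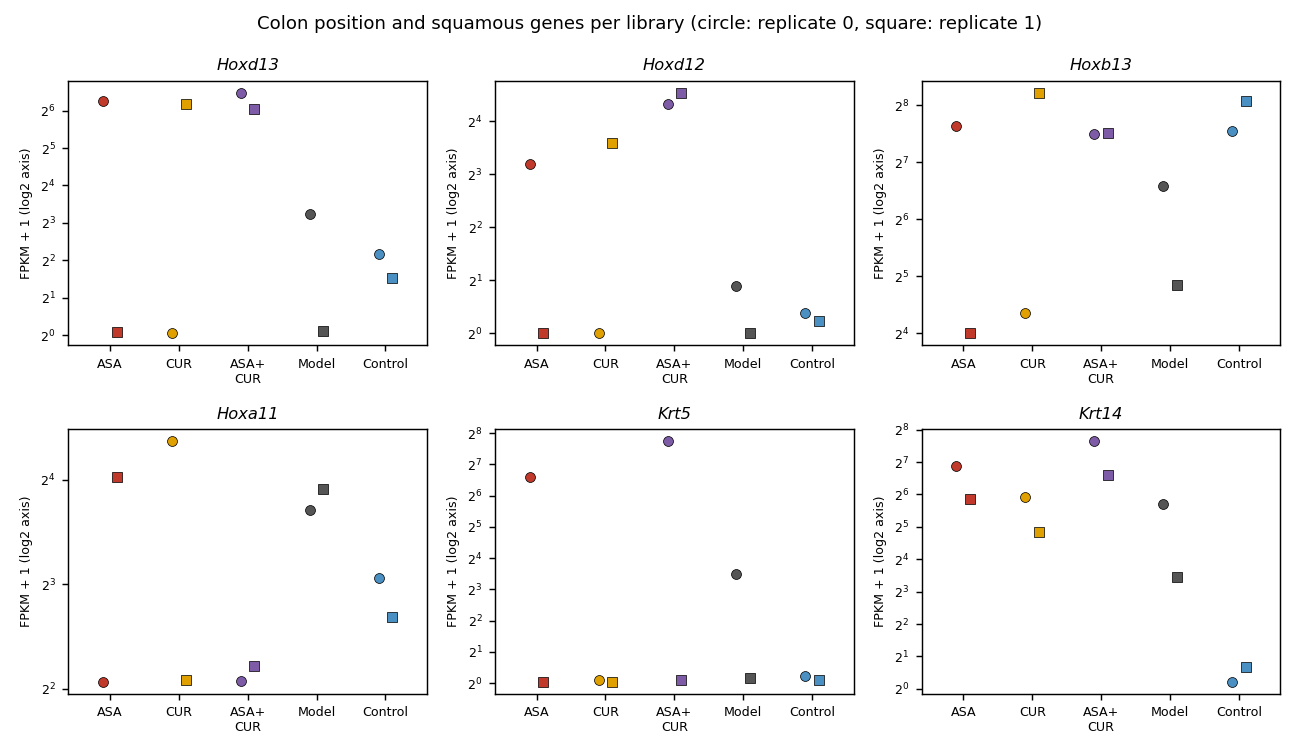
FPKM + 1 (log2 axis) of position genes (Hoxd13, Hoxd12, Hoxb13, Hoxa11) and squamous keratins (Krt5, Krt14) in each library by group, with circles for replicate 0 and squares for replicate 1. ASA replicate 0 and CUR replicate 1 were high for Hoxd13 at 75.65 and 71.64 FPKM, and Krt5 reached 94.55 FPKM in ASA replicate 0 alone of the 4 libraries of the 2 single diets.

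CUR replicate 0 also differed from its partner with the length of the transcript. The tested genes were divided into 5 classes by the median length of their coding transcripts in GENCODE. In the shortest class (189 to 1078 bases, 2662 genes), the median log2 difference of CUR replicate 0 from CUR replicate 1 was 0.26, and in the longest (from 3740 bases, 2655 genes) it was -0.29. The same medians between the ASA libraries were 0.004 and 0.007. The difference between the diets ran the opposite way, -0.15 in the shortest and 0.16 in the longest class, and it was -0.03 and -0.01 without CUR replicate 0 and -0.26 and 0.30 without CUR replicate 1. Lengths were available for 94.5% of the tested genes.

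**Figure D5:**
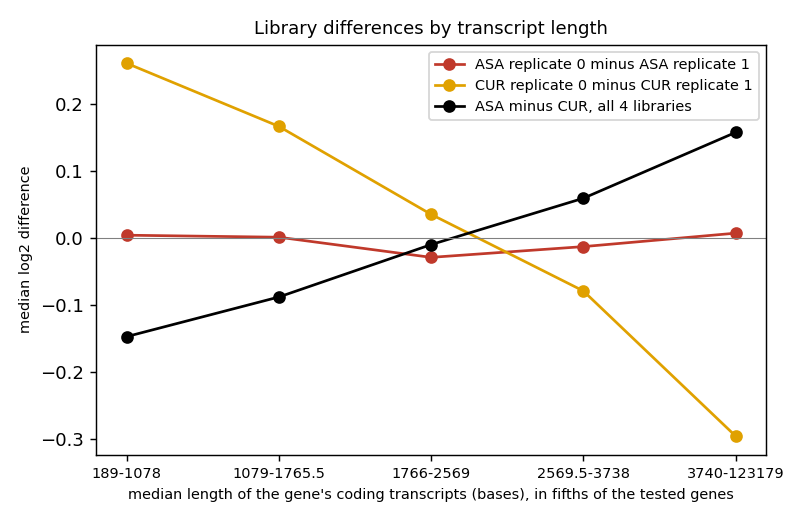
Median log2 difference in each of 5 classes of the tested genes by transcript length in bases, for ASA replicate 0 minus ASA replicate 1 (red), CUR replicate 0 minus CUR replicate 1 (yellow) and ASA minus CUR with all 4 libraries (black). The CUR pair ran from 0.26 in the shortest to -0.29 in the longest class, the ASA pair stayed within 0.03 of 0, and the diets differed by -0.15 to 0.16.

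Other lists depended on the same library. Of 28 cytosolic ribosomal protein genes, 28 were at lower values in ASA, 23 of them not overlapping, with a median of -0.36 that was -0.15 without CUR replicate 0 and 0.03 after quantile normalization, where the direction flipped. Rps14 had 1521.7 and 1441 FPKM in ASA and 2625.1 and 1792.8 FPKM in CUR. Oxidative phosphorylation genes had a median of -0.33 over 30 members with 14 not overlapping below. It was -0.10 without CUR replicate 0 and also -0.10 under TPM scaling. The goblet cell and fibroblast medians without CUR replicate 0 were -0.96 and 0.59, close to their values with all libraries.

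Leaving out CUR replicate 1 changed the count of genes most. With CUR replicate 0 as the only CUR library, assumed to vary like the other groups, 542 genes passed (3.85%), 210 higher (1.49%) and 332 lower (2.36%) in ASA, among them Steap4, Cd177, Ces1g, Nox1, Gcg, Tff3, Zg16 and Aqp8. These genes were picked on CUR replicate 0 alone, and no matching share over all tested genes was worked out for the left-out library. Among the genes lower in ASA, the left-out library lay beyond both ASA libraries more often on the same side than on the other. Among those higher in ASA it lay more often on the other side. These positions are therefore no check on the calls. Without CUR replicate 0, the count was 1, the small nucleolar RNA Snora70.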

How the data were processed

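Libraries came from total RNA with the TruSeq RNA kit, per the labels' protocols. The deposited table holds FPKM per RefSeq transcript, which the authors made with Cuffdiff, Bowtie2 (2.1.0.0), TopHat2 (2.0.9) and bcl2fastq (2.17.1.14), in no stated order, per the submitters' processing notes, on mm10/GRCm38. These are model estimates, not fragment counts, and neither counts nor depth could be recovered from the lowest values.

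Of 30073 transcript rows, 29439 were named by RefSeq (GRCm38.p6) and 183 by GENCODE, and 451 kept their identifier. FPKM was summed per gene, and genes that reached 1 FPKM in 2 or more libraries were kept. The test was limma 3.58.1 in R 4.3.3 on log2(FPKM + 1) with an intensity trend, over 10 libraries in 5 groups (5 residual degrees of freedom), contrast ASA minus CUR, two-sided, Benjamini-Hochberg over 14061 genes. The log2 scale with a pseudocount of 1 understates changes of low genes. The code was tested on simulated data. The comparison, gene lists and fixed genes were chosen with earlier results of these data known. Named genes were the 12 in each direction with the smallest p whose libraries did not overlap (genes past the threshold first), up to 4 of each list by p, and 19 tested fixed genes. Muc2 was not analysed here.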

Additional observations from a re-analysis of the deposited data

How the results depend on the processing

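The count of genes past the threshold, 1 in the main fit, was also 1 with a pseudocount of 0.1, a filter at 5 FPKM, TPM, upper quartile or quantile scaling, no intensity trend, and the Hoxd13 covariate. It was 2 with no filter on low values, and 0 with only the 4 ASA and CUR libraries, only the 8 AOM/DSS libraries, library weights, alpha-globin summed (chosen after seeing the data) or transcript rows in place of genes. With the replicate number as a block it was 0. The same-numbered ASA and CUR libraries tended weakly to deviate in opposite directions (correlation -0.214). Whether the numbers pair the samples is not known. The crossed pairing as a replicate block, chosen after seeing the data, gave a count of 2. Leaving out each library in turn gave counts from 1 to 542, the highest without CUR replicate 1 and 3 without ASA replicate 0. The causes were not tested.

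Among the fixed genes, 19 of 341 values reversed. Ugt1a1 was -0.006 after quantile normalization, Gstm1 was 0.19, 0.004 and 0.068 under TPM, upper quartile and quantile scaling, and Myc was 0.134 under TPM and 0.011 under quantile scaling. With each library left out the log2 difference ran from -1.48 to 0.65 for Ptgs2, -0.045 to 0.199 for Ugt1a1, -0.11 to 1.01 for Nqo1, -0.34 to 0.26 for Gstm1, -0.19 to 0.57 for Tnf, -0.43 to 0.24 for Myc, -0.40 to 0.67 for Axin2, -2.40 to 1.46 for Hoxb13 and -0.027 to 6.51 for Krt5. TPM scaling moved the median of all genes to 0.207, and under it the medians of many lists changed sign. Among these were the prostaglandin, esterase, conjugating enzyme, smooth muscle, cell cycle, Nrf2 and T and NK cell lists. The Paneth cell, adipocyte, fetal-like epithelium, proximal position, drug transporter, metallothionein, p53, immediate early, PPAR, ion transport and tight junction lists did so too. So did the list of housekeeping control genes, from -0.116 to 0.115. Depth is unknown, and 2 libraries a group limit every interval.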
